A study of Mus musculus with 2 samples.

Results

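The genes described here are the 10 genes *Igf1*, *Igf1r*, *Insr*, *Irs1*, *Irs2*, *Grb14*, *Pik3ca*, *Pik3r1*, *Akt1* and *Akt2*, which carry the signal from IGF1 and insulin to AKT. They were picked by symbol, and all 10 were among the 32285 genes of the count tables. Their RNA was read in single nuclei of tibialis anterior (TA) muscle, a hindlimb muscle built mostly of fast fibers. The library labelled M-*Bcl6* KO came from male *Myf6*-Cre+ *Bcl6* fl/fl mice, and the library labelled M-*Bcl6* WT from male *Myf6*-Cre+ *Bcl6* wt/wt littermates, so both groups carried the Cre. All mice were 6 weeks old and on a C57BL/6 background. Right and left TA muscles of 2 mice per genotype were pooled into 1 library each, and Cre was driven by the *Myf6* promoter, which is active in muscle fibers. A single library stood for each genotype, so the spread between mice is not known and genotypes were not tested against each other.

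IGF1 and insulin bind receptor tyrosine kinases on the muscle fiber. The active receptor phosphorylates the adaptors IRS1 and IRS2, which recruit phosphoinositide 3-kinase (PI3K), a catalytic subunit such as p110α (*Pik3ca*) held by a regulatory subunit such as p85α (*Pik3r1*). PI3K makes the membrane lipid PIP3, which brings AKT to the membrane, and AKT promotes protein synthesis through mTORC1, glucose uptake, and the exclusion of FOXO factors from the nucleus. In skeletal muscle the pathway is known for its control of fiber size. GRB14 is an adaptor that binds the active insulin receptor and inhibits it.

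Each RNA molecule was counted once by its unique molecular identifier (UMI). The tables held 11974138 UMIs in 3798 barcodes for the WT-labelled library and 12026013 UMIs in 4096 barcodes for the KO-labelled library, and 3674 and 3944 nuclei were kept. The libraries shared 6 barcode sequences. Nuclei were clustered without the 10 genes, their pathway and the genes that differed 2-fold between libraries, and 2414 and 3089 nuclei were myonuclei, the nuclei of muscle fibers. All 10 myonuclear markers (*Ttn*, *Ckm* and others) were present in them. *Bcl6*, the gene targeted in this model, went against the label: its level in myonuclei was 168 CPM (UMIs scaled to a total of 1000000) in the WT-labelled library and 501 in the KO-labelled library, a log2 ratio of 1.58. The floxed part is exons 7 to 9 of a transcript with 10 exons, and the counts are per gene and do not say which part of it was read, so they do not show whether the deletion took place.

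A level below is the CPM of a gene over the summed UMIs of a group of nuclei, with an exact Poisson 95% interval. A difference is the log2 ratio of the CPM in the KO-labelled library over that in the WT-labelled library, with an exact 95% interval conditional on the total. Both intervals cover counting error only, not the spread between mice. A gene was counted as higher or lower when it was past 2-fold and had at least 200 UMIs in both libraries together. In bulk sums such as these, fewer expressing nuclei and less RNA per nucleus cannot be told apart. CPM values of different genes are not compared, because they are not per length.

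The 250 bases before the RefSeq start (GRCm38.p6) of 4 members are shown because these are the members past 2-fold in myonuclei, *Irs2* and *Grb14* lower and *Pik3ca* and *Akt1* higher. Capitals mark the FOXO motif TTGTTTAC, searched on both strands, as were TTCNNNGAA, the palindrome that STAT factors and BCL6 share, and its narrower form TTCCTNGAA.
*Irs2* (chr8:11008930-11009179, reverse strand): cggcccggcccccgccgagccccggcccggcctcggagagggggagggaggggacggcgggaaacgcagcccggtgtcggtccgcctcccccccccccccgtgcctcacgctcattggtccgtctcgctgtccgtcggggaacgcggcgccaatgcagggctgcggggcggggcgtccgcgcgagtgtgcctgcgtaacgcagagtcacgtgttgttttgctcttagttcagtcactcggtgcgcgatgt
*Grb14* (chr2:65022767-65023016, reverse strand): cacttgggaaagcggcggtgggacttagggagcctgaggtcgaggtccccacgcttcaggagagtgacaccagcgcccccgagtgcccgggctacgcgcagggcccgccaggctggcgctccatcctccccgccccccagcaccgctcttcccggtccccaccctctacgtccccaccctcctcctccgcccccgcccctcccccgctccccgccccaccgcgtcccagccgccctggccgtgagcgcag
*Pik3ca* (chr3:32396815-32397064, forward strand): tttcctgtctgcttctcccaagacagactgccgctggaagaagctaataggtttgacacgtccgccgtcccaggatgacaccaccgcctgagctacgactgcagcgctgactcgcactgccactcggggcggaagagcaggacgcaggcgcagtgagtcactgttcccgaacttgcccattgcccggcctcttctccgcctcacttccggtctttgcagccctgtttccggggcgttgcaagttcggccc
*Akt1* (chr12:112674885-112675134, reverse strand): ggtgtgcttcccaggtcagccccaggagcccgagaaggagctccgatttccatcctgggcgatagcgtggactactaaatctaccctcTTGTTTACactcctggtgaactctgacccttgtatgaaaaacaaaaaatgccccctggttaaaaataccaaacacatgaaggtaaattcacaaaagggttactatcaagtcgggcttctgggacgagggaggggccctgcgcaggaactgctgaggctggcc
RefSeq gave 14 such promoters for 9 of the 10 members. *Akt1* has 2 of them: the one shown ends at the GENCODE start, and the other (chr12:112674277-112674526) lies inside the GENCODE gene and holds none of the motifs. The RefSeq starts of the other members shown lie elsewhere than the GENCODE starts. The FOXO motif was in 1 of the 14, that of *Akt1* shown here, and in 1.07% of 32851 promoters. TTCNNNGAA was in 1 of the 14, a promoter of *Akt2* that is not shown, and in 7.02% of all. TTCCTNGAA was in 0 of the 14 and in 1.31% of all. A match describes these letters only, and no binding was measured in these samples.

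In myonuclei, *Pik3ca* and *Akt1* were past 2-fold higher and *Irs2* and *Grb14* past 2-fold lower in the KO-labelled library. The counts were 2 higher and 2 lower of the 9 members with enough UMIs, *Igf1* being the exception. Among all 6986 genes with enough UMIs, 3.06% were past 2-fold higher and 2.69% past 2-fold lower. The median log2 ratio of these genes was -0.15, so a member at 0 stood slightly above the typical gene. TMM scaling moved all ratios in myonuclei up by 0.13 and changed none of the 4 calls. *Grb14* (199 and 42 UMIs) and *Akt1* (77 and 203) met the minimum mainly through the library where they were higher. With each nucleus thinned to 1000 UMIs, 7 members had enough UMIs. The counts were then 1 higher (*Pik3ca*) and 1 lower (*Irs2*).

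**Figure D1:**
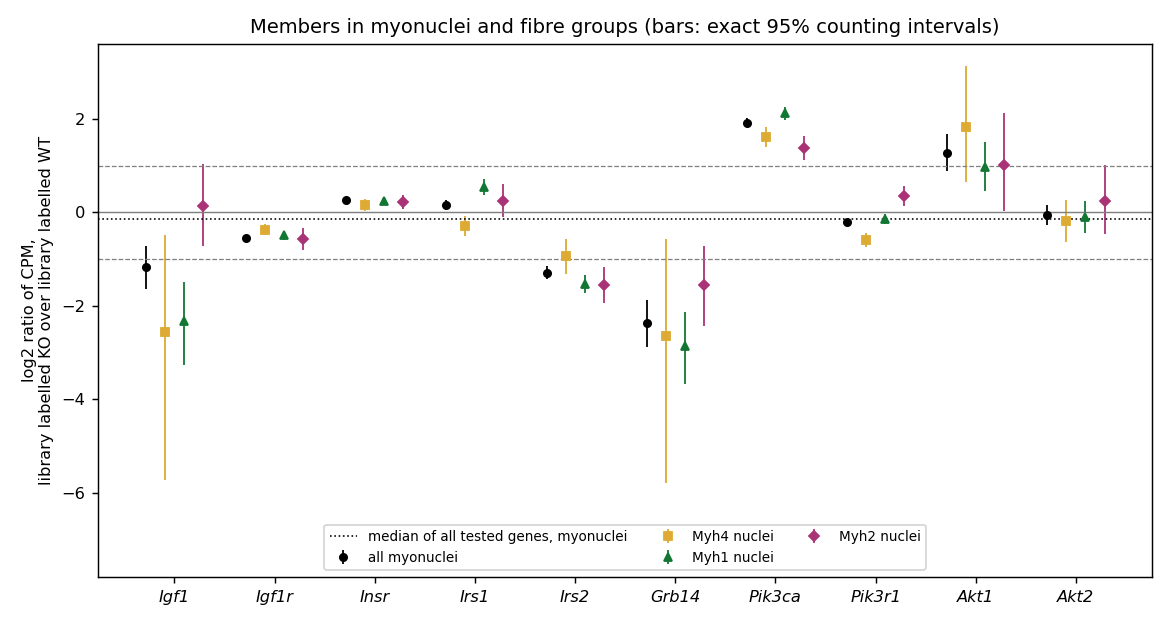
Log2 ratio of CPM, library labelled KO over library labelled WT (y axis), for the 10 members (x axis) in all myonuclei and in nuclei grouped by their main myosin gene, with exact 95% counting intervals. *Pik3ca* sits at 1.92 and *Akt1* at 1.27 in myonuclei, while *Irs2* sits at -1.29 and *Grb14* at -2.37, and dashed lines mark 2-fold.

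*Pik3ca* (chr3:32397671-32468486, forward strand), which encodes the catalytic PI3K subunit p110α, had the highest ratio of the members. A GENCODE gene on the same strand overlaps it and is not a row of the tables, so reads of either could count as *Pik3ca*. Its level in myonuclei was 118 CPM (111 to 125) on 1042 UMIs in the WT-labelled library and 444 CPM (431 to 458) on 4291 UMIs in the KO-labelled library. The level was 3.78-fold higher, a log2 ratio of 1.92 (1.82 to 2.02), above 99.2% of all tested genes. At least 1 *Pik3ca* UMI was found in 716 of 2414 and 1907 of 3089 myonuclei. The signal was thus spread over many nuclei, with at most 15 UMIs in any of them.

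The higher *Pik3ca* level was found in each fiber group. Myonuclei were grouped by the myosin heavy chain gene with most UMIs: *Myh4* marks the fastest, glycolytic type IIB fibers, *Myh1* type IIX, and *Myh2* the more oxidative type IIA. The level was 108 and 331 CPM in *Myh4* nuclei, 111 and 480 CPM in *Myh1* nuclei and 175 and 450 CPM in *Myh2* nuclei, in the WT- and KO-labelled libraries. The log2 ratios were 1.62 (1.41 to 1.83), 2.12 (1.97 to 2.26) and 1.37 (1.11 to 1.63). *Pik3ca* was thereby the 1 member counted as higher in each of the 3 groups, out of 6, 7 and 6 members with enough UMIs, beside 2.13%, 3.29% and 2.8% of all tested genes. In nuclei with no myosin UMI or a tie it was again the 1 of 6, with a log2 ratio of 1.89 (1.62 to 2.18), beside 4.16% of genes. In nuclei of the myotendinous junction (MTJ-like, 26 and 34 nuclei) it was 205 and 564 CPM.

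Outside the fibers the *Pik3ca* interval included 0 in every class with more than 100 nuclei per library. The level in fibro-adipogenic progenitors (FAP-like nuclei, the stromal cells of muscle) was 260 CPM (231 to 292) and 232 CPM (198 to 271), a log2 ratio of -0.16 (-0.45 to 0.12). In MuSC-like nuclei, those of muscle stem cells, it was 257 and 220 CPM. In pericyte or smooth muscle-like nuclei it was 557 and 605 CPM, the highest of the non-muscle classes in both libraries. In endothelial-like nuclei it was 143 and 198 CPM, a log2 ratio of 0.47 (-0.09 to 1.04). The level in myonuclei of the WT-labelled library was thus below that in FAP-like nuclei, and the order of these levels was the opposite in the KO-labelled library.

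*Irs2* (chr8:10984681-11008458, reverse strand) encodes an adaptor between the receptors and PI3K. Its level in myonuclei was 160 CPM (152 to 168) on 1416 UMIs in the WT-labelled library and 65.1 CPM (60.1 to 70.4) on 629 UMIs in the KO-labelled library. The level was 2.45-fold lower, a log2 ratio of -1.29 (-1.43 to -1.16), and 1.3% of all tested genes had a lower one. *Irs2* was found in 725 and 442 myonuclei.

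By fiber group, *Irs2* was 88.6 and 46.2 CPM in *Myh4* nuclei, 206 and 71.1 CPM in *Myh1* nuclei, and 167 and 56.8 CPM in *Myh2* nuclei, in the libraries labelled WT and KO. The intervals of the libraries did not overlap in any of the 3 groups. The log2 ratios were -0.94 (-1.33 to -0.56), -1.54 (-1.73 to -1.34) and -1.55 (-1.94 to -1.17). *Irs2* was the 1 member counted as lower in *Myh1* nuclei and in *Myh2* nuclei, beside 2.69% and 1.73% of tested genes, and 0 members were so counted in *Myh4* nuclei, beside 3.16%. In nuclei with no main myosin the count was also 0, beside 2.4%, with *Irs2* at -0.75 (-1.11 to -0.39).

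After each nucleus was thinned to 1000 UMIs, 12.1% (exact binomial 95% interval 10.9 to 13.5) of 2387 myonuclei in the WT-labelled library held an *Irs2* UMI, and 5.47% (4.69 to 6.34) of 3016 in the KO-labelled library. Shallower nuclei, 27 and 73 in number, were left out. Without thinning they were the 725 and 442 nuclei above, at median depths of 3128 and 2714 UMIs. Endothelial-like nuclei, the class with least *Irs2*, held it in 1 of 153 thinned nuclei (0.654%) and in 0 of 112, which allows a share of up to 2.68%. Their median depths were 1391 and 1754 UMIs, and unthinned the shares were 0.446% and 0.0%. The myonuclear shares stood above those of this class in both libraries, which does not place them above other classes. In the KO-labelled library the *Irs2* level was 65.1 CPM in myonuclei. By value it was higher in FAP-like (83.6 CPM) and MuSC-like nuclei (94.1 CPM).

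*Grb14* (chr2:64912476-65024987, reverse strand), the receptor inhibitor, had the lowest ratio of the members. Its level in myonuclei was 22.5 CPM (19.4 to 25.8) on 199 UMIs in the WT-labelled library and 4.35 CPM (3.13 to 5.88) on 42 UMIs in the KO-labelled library. The level was 5.16-fold lower, a log2 ratio of -2.37 (-2.88 to -1.88), and 0.143% of tested genes had a lower one. *Grb14* met the minimum of 200 UMIs mainly through the WT-labelled library, so a gene with its counts had to differ to be included. The UMIs came from 151 and 29 nuclei with at most 4 in any nucleus.

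The *Grb14* counts in single fiber groups were small. *Myh4* nuclei held 18 and 2 UMIs, *Myh1* nuclei 139 and 17, and *Myh2* nuclei 32 and 21. In *Myh1* nuclei this gave 30.6 CPM (25.7 to 36.1) and 4.21 CPM (2.45 to 6.74), a log2 ratio of -2.86 (-3.68 to -2.13). In *Myh2* nuclei it gave 37.0 and 12.6 CPM, a log2 ratio of -1.56 (-2.43 to -0.72), and in *Myh4* nuclei -2.64 with an interval from -5.79 to -0.58. All 3 intervals lay below 0, and they overlapped each other. Among thinned myonuclei, 2.05% and 0.265% held a *Grb14* UMI. Endothelial-like nuclei held none in 153 and 112 thinned nuclei, with exact 95% upper limits of 2.38% and 3.24%, so both myonuclear shares were within what that class allows.

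*Akt1* (chr12:112653821-112674884, reverse strand) and *Akt2* (chr7:27591552-27640826, forward strand) encode the AKT kinases, AKT2 being the form tied most closely to insulin-driven glucose uptake. The *Akt1* level in myonuclei was 8.69 CPM (6.86 to 10.9) on 77 UMIs and 21.0 CPM (18.2 to 24.1) on 203 UMIs in the libraries labelled WT and KO. The level was 2.42-fold higher, a log2 ratio of 1.27 (0.89 to 1.67), above 98.1% of tested genes. It met the minimum of 200 UMIs mainly through the KO-labelled library. The *Akt1* levels were 3.61 and 12.7 CPM in *Myh4* nuclei, 11.2 and 22.0 CPM in *Myh1* nuclei, and 12.7 and 25.7 CPM in *Myh2* nuclei. The intervals of the 3 log2 ratios, 1.82 (0.64 to 3.12), 0.97 (0.46 to 1.499) and 1.02 (0.04 to 2.12), lay above 0.

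In FAP-like nuclei *Akt1* was lower in value in the KO-labelled library, 27.3 CPM (18.4 to 38.9) against 14.2 CPM (6.79 to 26.1), on 30 and 10 UMIs, and the interval of the log2 ratio, -2.14 to 0.13, included 0. *Akt2* differed little. Its level in myonuclei was 40.2 CPM (36.1 to 44.6) and 38.5 CPM (34.7 to 42.6), a log2 ratio of -0.06 (-0.27 to 0.15). With the median of all genes set to 0, the *Akt2* value was 0.09, so its sign depended on the scaling.

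The receptors differed in opposite directions. *Igf1r* (chr7:67952827-68233668, forward strand), the IGF1 receptor, was 522 CPM (507 to 537) in myonuclei of the WT-labelled library and 358 CPM (346 to 370) in those of the KO-labelled library, a log2 ratio of -0.54 (-0.61 to -0.48). *Insr* (chr8:3122061-3279617, reverse strand), the insulin receptor, was 493 CPM (479 to 508) and 589 CPM (574 to 604), a log2 ratio of 0.26 (0.20 to 0.31). Neither was past 2-fold, and 11.5% of tested genes lay below *Igf1r* and 84.9% below *Insr*. The directions held in the fiber groups. The *Igf1r* log2 ratios were -0.37 (-0.49 to -0.26), -0.49 (-0.59 to -0.39) and -0.58 (-0.80 to -0.35) in *Myh4*, *Myh1* and *Myh2* nuclei, and the *Insr* log2 ratios were 0.16 (0.03 to 0.29), 0.25 (0.17 to 0.33) and 0.22 (0.07 to 0.37).

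*Irs1* and *Pik3r1* had small ratios over all myonuclei and different signs between fiber groups. *Irs1* (chr1:82233101-82291416, reverse strand), the second IRS adaptor, was 147 CPM (139 to 155) and 163 CPM (155 to 171) in myonuclei, a log2 ratio of 0.15 (0.04 to 0.25). In *Myh4* nuclei it was 190 and 155 CPM, a log2 ratio of -0.29 (-0.51 to -0.07), and in *Myh1* nuclei 112 and 162 CPM, a log2 ratio of 0.54 (0.37 to 0.71). In *Myh2* nuclei the ratio was 0.24 (-0.10 to 0.60). With the fiber groups weighted equally the myonuclear value of *Irs1* was -0.01, so its small overall ratio depended on the weights of the groups. With nuclei thinned to 1000 UMIs the value was -0.03. *Irs1* was near 0 in endothelial-like nuclei (2 and 0 UMIs) and at 0 UMIs in macrophage-like nuclei of both libraries, where 3 UMIs would be 17.1 and 24.4 CPM.

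*Pik3r1* (chr13:101680563-101768217, reverse strand), which encodes p85α and shorter regulatory subunits, was 399 CPM (386 to 413) and 344 CPM (333 to 356) in myonuclei, a log2 ratio of -0.21 (-0.28 to -0.15). With the median of all genes set to 0, this was -0.07. It was 434 and 288 CPM in *Myh4* nuclei, a log2 ratio of -0.59 (-0.75 to -0.44), and 296 and 376 CPM in *Myh2* nuclei, a log2 ratio of 0.35 (0.13 to 0.56). The *Myh1* value was -0.15 (-0.24 to -0.05), at the median of all genes there, which was also -0.15. In 1 *Myh4* nucleus of the WT-labelled library, also MTJ-like, 60 *Pik3r1* UMIs were counted, of 1083 in the group.

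**Figure D2:**
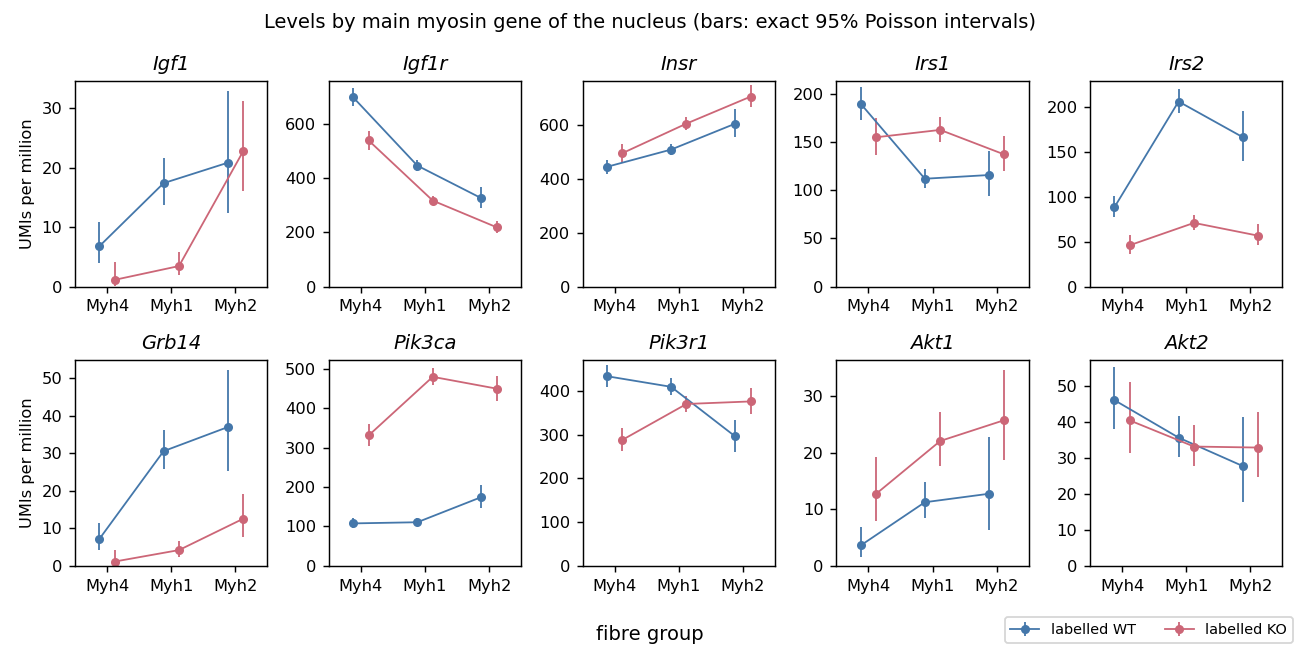
CPM (y axis, own range in each panel from 0) of the 10 members in nuclei with *Myh4*, *Myh1* or *Myh2* as main myosin gene (x axis), in the libraries labelled WT (blue) and KO (red), with exact 95% Poisson intervals. *Igf1r* is higher in *Myh4* than in *Myh2* nuclei in both libraries (699 against 326 and 540 against 219 CPM), *Insr* is lower there (444 against 604 and 495 against 704 CPM), and lines only join values of 1 library.

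Within a library, the members differed between *Myh4* and *Myh2* nuclei, and these differences carry no comparison of genotypes. *Igf1r* was lower in *Myh2* than in *Myh4* nuclei in both libraries, at 326 against 699 CPM in the WT-labelled library and 219 against 540 CPM in the KO-labelled library. The log2 ratios of *Myh2* over *Myh4* were -1.10 (-1.28 to -0.92) and -1.30 (-1.48 to -1.12). *Igf1r* was the 1 member past 2-fold lower, of 6 with enough UMIs in the WT-labelled library and 5 in the KO-labelled library, beside 9.65% and 6.83% of all tested genes. No member with enough UMIs was past 2-fold higher in *Myh2* nuclei (0 and 0), beside 8.52% and 11.0%. Below the minimum, and so on few UMIs, *Igf1* was higher there by 1.61 (0.57 to 2.66) and 4.30 (2.35 to 7.4). *Akt1*, also below it, was higher by 1.82 (0.41 to 3.27) and 1.02 (0.24 to 1.83). *Akt2*, below it too, went the other way by value, at -0.73 (-1.43 to -0.09) and -0.30 (-0.83 to 0.23). *Insr* was higher in *Myh2* nuclei by 0.44 (0.29 to 0.60) and 0.51 (0.38 to 0.64), and *Pik3ca* by 0.70 (0.40 to 0.99) and 0.44 (0.28 to 0.60).

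*Irs2* differed more between fiber groups in the WT-labelled library by value, with 167 CPM in *Myh2*, 206 CPM in *Myh1* and 88.6 CPM in *Myh4* nuclei. The log2 ratio of *Myh2* over *Myh4* was 0.91 (0.60 to 1.22) there and 0.30 (-0.15 to 0.75) in the KO-labelled library. *Grb14* was higher in *Myh2* than in *Myh4* nuclei in both, on few UMIs, by 2.36 (1.48 to 3.28) and 3.44 (1.41 to 6.58). *Pik3r1* was lower in *Myh2* than in *Myh4* nuclei in the WT-labelled library, at -0.55 (-0.75 to -0.35), and higher in the KO-labelled library, at 0.38 (0.21 to 0.56). *Irs1* was lower by value in *Myh2* nuclei of both, with an interval that included 0 in the KO-labelled library.

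*Igf1* (chr10:87858265-87937042, forward strand), the growth factor itself, had few UMIs in myonuclei. The level was 14.2 CPM (11.8 to 16.9) on 126 UMIs in the WT-labelled library and 6.32 CPM (4.83 to 8.11) on 61 UMIs in the KO-labelled library, a log2 ratio of -1.17 (-1.64 to -0.72). With 187 UMIs in all it was below the minimum for a call. The UMIs lay in 75 and 39 nuclei, with at most 6 in any nucleus. *Igf1os*, an antisense gene, overlaps *Igf1*.

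The intervals of the *Igf1* log2 ratio in *Myh1* and *Myh2* nuclei did not overlap, while that of *Myh4* nuclei overlapped both. *Myh1* nuclei held 79 and 14 *Igf1* UMIs, which gave 17.4 CPM (13.8 to 21.7) and 3.47 CPM (1.90 to 5.82), a log2 ratio of -2.33 (-3.26 to -1.496). *Myh4* nuclei held 17 and 2, a log2 ratio of -2.56 with an interval from -5.72 to -0.48. *Myh2* nuclei held 18 and 38, and the levels there were 20.8 CPM (12.3 to 32.9) and 22.7 CPM (16.1 to 31.2), a log2 ratio of 0.13 (-0.72 to 1.02). *Myh2* nuclei thus held 62.3% of the myonuclear *Igf1* UMIs in the KO-labelled library and 14.3% in the WT-labelled library. They were 482 of 3089 and 234 of 2414 myonuclei.

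Markers of other cells that express *Igf1* were read in the same nuclei. The summed level of 10 FAP markers ran from 25.7 to 50.01 CPM over the fiber groups of both libraries, against 12910 and 11710 CPM in FAP-like nuclei, with 8 to 10 of the markers present. The 9 tenocyte markers summed to 3.21 to 7.51 CPM, other than 16.8 CPM in *Myh2* nuclei of the KO-labelled library, with *Tnmd* and *Kera* at 0 in each. The 9 macrophage markers summed to 31.2 to 185 CPM, against 7385 and 9480 CPM in macrophage-like nuclei. *Csf1r* and *Cd163* were at 0.226 to 0.414 CPM in all myonuclei, and at 0 in *Myh2* nuclei of both libraries. At these marker levels, RNA with the makeup of FAP-like nuclei would carry 0.398 CPM of *Igf1* into *Myh2* nuclei of the KO-labelled library, where 22.7 CPM was measured, and RNA with the makeup of macrophage-like nuclei 0.706 CPM. With every nucleus holding a UMI of these markers left out, 1454 and 2303 myonuclei remained, and the log2 ratio of *Igf1* was -1.23 (-1.79 to -0.68). In the *Myh1* nuclei that remained it was -2.56 (-3.72 to -1.55). In the *Myh2* nuclei that remained it was -0.22 (-1.16 to 0.76), on 16 and 28 UMIs, so the sign there was not settled.

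*Igf1* was higher in stromal and immune classes than in fibers. The level in FAP-like nuclei was 153 CPM (130 to 178) and 181 CPM (151 to 216) in the libraries labelled WT and KO, a log2 ratio of 0.25 (-0.09 to 0.59). In tenocyte-like nuclei it was 112 CPM (66.2 to 177) and 75.3 CPM (37.6 to 135). In macrophage-like nuclei it was 126 CPM (78.7 to 190) on 22 UMIs and 48.8 CPM (17.9 to 106) on 6, a log2 ratio of -1.36 (-2.96 to -0.02). In MuSC-like nuclei it was 59.2 and 105 CPM, with overlapping intervals. The order of FAP-like, tenocyte-like and macrophage-like levels cannot be told within a library from these counts, apart from FAP-like above the other two in the KO-labelled library. In endothelial-like nuclei it was 15.3 and 3.74 CPM, on 6 and 1 UMIs.

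**Figure D3:**
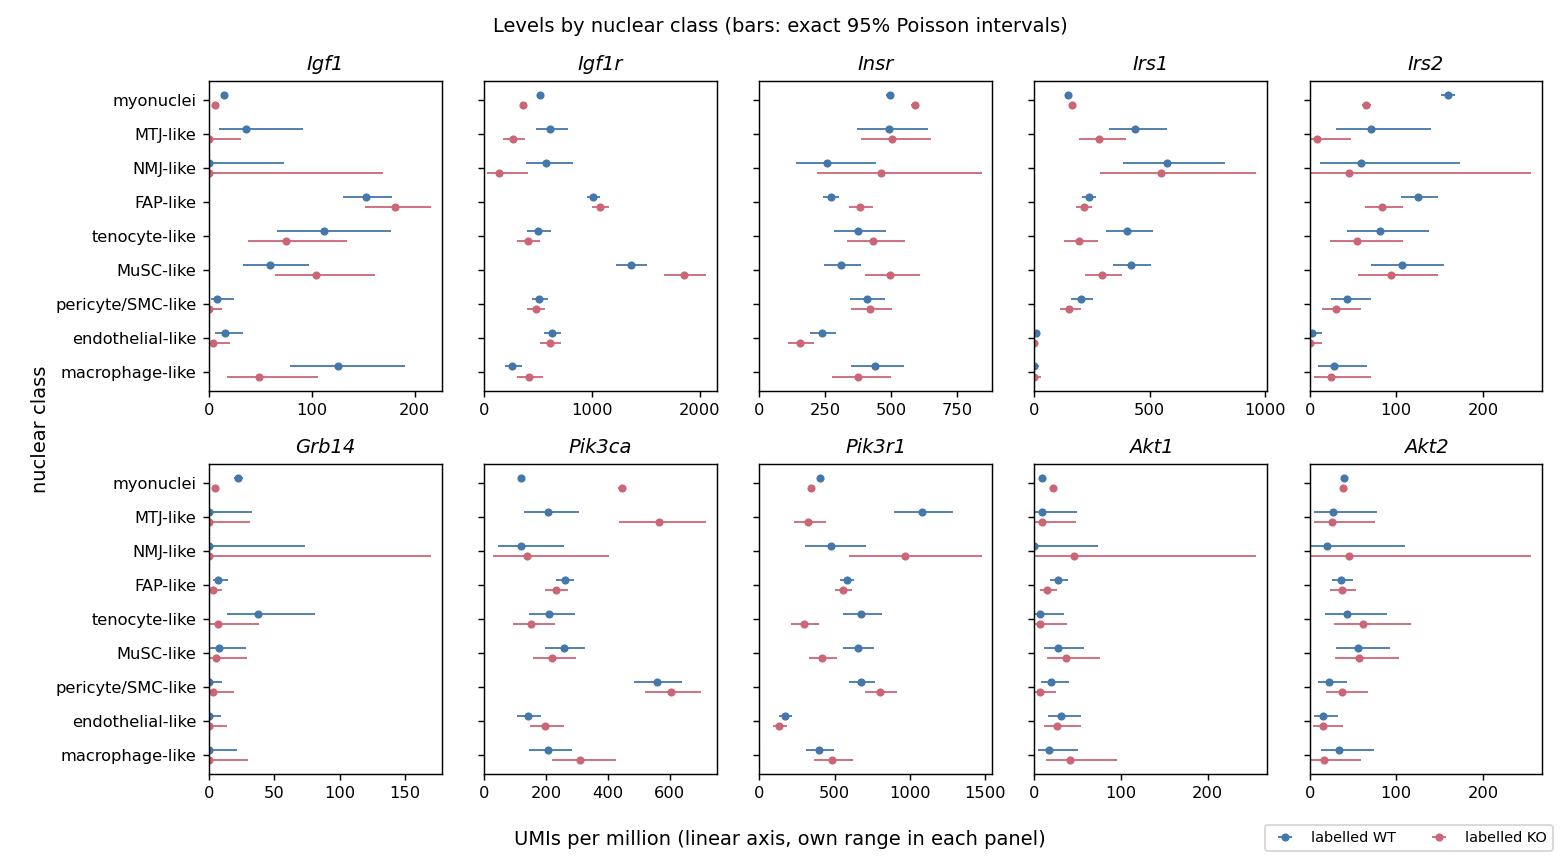
CPM (x axis, own range in each panel from 0) of the 10 members in 9 nuclear classes (y axis) in the libraries labelled WT (blue) and KO (red), with exact 95% Poisson intervals. *Igf1r* is highest in MuSC-like nuclei (1363 and 1856 CPM), *Igf1* is highest by value in FAP-like nuclei (153 and 181 CPM) with intervals that overlap those of tenocyte-like and macrophage-like nuclei in the WT-labelled library and of MuSC-like nuclei in the KO-labelled library, and *Irs1* and *Irs2* are at or near 0 in endothelial-like nuclei.

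Compared with myonuclei of the same library, FAP-like nuclei held more *Igf1* and *Igf1r*. The log2 ratio of FAP-like nuclei over myonuclei was 3.43 (3.08 to 3.77) for *Igf1* in the WT-labelled library and 4.84 (4.39 to 5.31) in the KO-labelled library, and 0.96 (0.86 to 1.05) and 1.59 (1.47 to 1.70) for *Igf1r*. Past 2-fold higher were 2 of 9 members in the WT-labelled library, *Igf1* and *Pik3ca*, beside 19.8% of all tested genes. In the KO-labelled library it was 1 of 8, *Igf1r*, beside 18.2%, *Igf1* having 189 UMIs there. Past 2-fold lower were 1 of 9, *Grb14*, beside 25.7%, and 0 of 8, beside 25.8%. TMM factors, which shift these ratios down by 0.28 and 0.32, gave 1 higher (*Igf1*) and 2 lower (*Insr* and *Grb14*) in the WT-labelled library, and 1 higher and 1 lower (*Igf1r* and *Pik3ca*) in the KO-labelled library. Between genotypes, 0 of the 6 members with enough UMIs in FAP-like nuclei were past 2-fold higher and 0 past 2-fold lower, beside 1.28% and 0.411% of tested genes. *Insr* had the highest ratio of the 6, at 0.50 (0.26 to 0.75), with 270 and 383 CPM. Myonuclear markers summed to 1641 and 4005 CPM in FAP-like nuclei, and at that level RNA of myonuclear makeup would carry 8.31 and 20.8 CPM of *Insr*.

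The receptors were ordered differently over the classes. *Igf1r* was highest in MuSC-like nuclei, at 1363 CPM (1223 to 1514) and 1856 CPM (1668 to 2060), followed by FAP-like nuclei at 1013 and 1077 CPM. Its level in macrophage-like nuclei, 263 and 415 CPM, was the lowest of the non-muscle classes in the WT-labelled library. In tenocyte-like, pericyte or smooth muscle-like and endothelial-like nuclei it was 404 to 631 CPM. By value *Insr* was highest in myonuclei in both libraries, though the interval of macrophage-like nuclei reached the myonuclear level in the WT-labelled library and that of MuSC-like nuclei (402 to 607 CPM) in the KO-labelled library. Of the classes with at least 50 nuclei per library, endothelial-like nuclei had least, at 237 CPM (191 to 290) and 153 CPM (110 to 208). *Insr* in MuSC-like nuclei was 308 and 497 CPM, a log2 ratio of 0.69 (0.24 to 1.14).

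Among the groups of myonuclei, *Irs1* was highest by value at the synapses and tendon ends of fibers. It was 436 CPM (323 to 577) and 282 CPM (194 to 396) in MTJ-like nuclei. In nuclei of the neuromuscular junction (NMJ-like, 15 and 8 nuclei) it was 575 CPM (385 to 826) and 551 CPM (285 to 963), above the 147 and 163 CPM of all myonuclei in both libraries. The NMJ-like values rest on 29 and 12 UMIs, in 8 and 4 nuclei. *Irs1* was also high in MuSC-like nuclei, at 419 and 293 CPM, and tenocyte-like nuclei, at 403 and 192 CPM. *Pik3r1* in MTJ-like nuclei was 1078 CPM (894 to 1288) and 325 CPM (230 to 446), and the nucleus with 60 UMIs is among the 121 UMIs of the WT-labelled library. Without that nucleus the level there was 591 CPM (452 to 759).

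*Irs2*, *Grb14* and the AKT genes were read at low counts outside the fibers. *Irs2* was 125 CPM (105 to 148) and 83.6 CPM (63.6 to 108) in FAP-like nuclei, a log2 ratio of -0.58 (-1.05 to -0.14), and 107 and 94.1 CPM in MuSC-like nuclei. In 6 non-muscle classes, from FAP-like to macrophage-like, the *Irs2* value was lower in the KO-labelled library, and the interval excluded 0 in FAP-like nuclei only. *Grb14* had 8 and 2 UMIs in FAP-like nuclei and 0 in both libraries in endothelial-like, macrophage-like, MTJ-like and NMJ-like nuclei. In lymphatic endothelial-like nuclei (21 and 14) it had 6 and 3 UMIs, which gave 146 CPM (53.5 to 317) and 113 CPM (23.3 to 331). *Akt2* ran from 15.3 to 55.3 CPM over the non-muscle classes with at least 50 nuclei in the WT-labelled library, with overlapping intervals between the libraries in each.

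The remaining genes of the pathway were read from a list of 72 genes in 8 roles, members included. In myonuclei, 53 of the 72 had at least 200 UMIs, and 4 were past 2-fold higher and 3 past 2-fold lower, beside 3.06% and 2.69% of all 6986 tested genes, the background for each role below as well. The median log2 ratio of the 53 was -0.12, beside -0.15 over all 6986 genes. Without the members, 2 of 44 were higher (*Inpp4b* and *Eif4ebp1*) and 1 lower (*Pik3r3*), with a median of -0.13. TMM scaling gave 7 higher and 3 lower among the 53, since *Sesn1*, *Grb10* and *Ddit4* lay just under 2-fold.

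*Inpp4b* encodes a phosphatase that acts on the PI3K product PI(3,4)P2. It was 423 CPM in the WT-labelled library and 1177 CPM in the KO-labelled library in myonuclei, a log2 ratio of 1.48 (1.42 to 1.53). Its level in *Myh4* nuclei was 122 and 471 CPM, in *Myh1* nuclei 516 and 1489 CPM, and in *Myh2* nuclei 1045 and 1673 CPM. The ratio was thus 1.95, 1.53 and 0.68, and among these fiber groups *Inpp4b* was highest in *Myh2* nuclei in both libraries. Pericyte or smooth muscle-like nuclei held 1633 and 1966 CPM. FAP-like nuclei held 27.3 and 90.7 CPM, a log2 ratio of 1.73 (1.09 to 2.41), with summed myonuclear markers at 1641 and 4005 CPM. Tenocyte-like nuclei held 12.4 and 103 CPM, on 2 and 15 UMIs, with the same markers at 6449 and 7653 CPM. In myonuclei these markers summed to 97420 and 113600 CPM. How much of the *Inpp4b* in FAP-like and tenocyte-like nuclei was RNA of myonuclear makeup was not tested. In endothelial-like and macrophage-like nuclei the value was lower, with intervals that included 0.

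*Pik3r3*, a regulatory subunit of PI3K, was 24.9 and 10.9 CPM, a log2 ratio of -1.20 (-1.55 to -0.86). The PI3K subunits therefore held a gene past 2-fold in each direction. Of the 7 tested, 5 lay below the median of all tested genes (-0.15), which has as many genes below as above. *Pik3r1* was 1 of these, at -0.07 with that median set to 0. *Eif4ebp1*, a repressor of translation that mTORC1 inactivates, was 41.2 and 102 CPM, a log2 ratio of 1.31 (1.13 to 1.49). In *Myh1* nuclei *Eif4ebp1* was 24.2 and 85.9 CPM, and in *Myh4* nuclei 70.1 and 117 CPM.

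**Figure D4:**
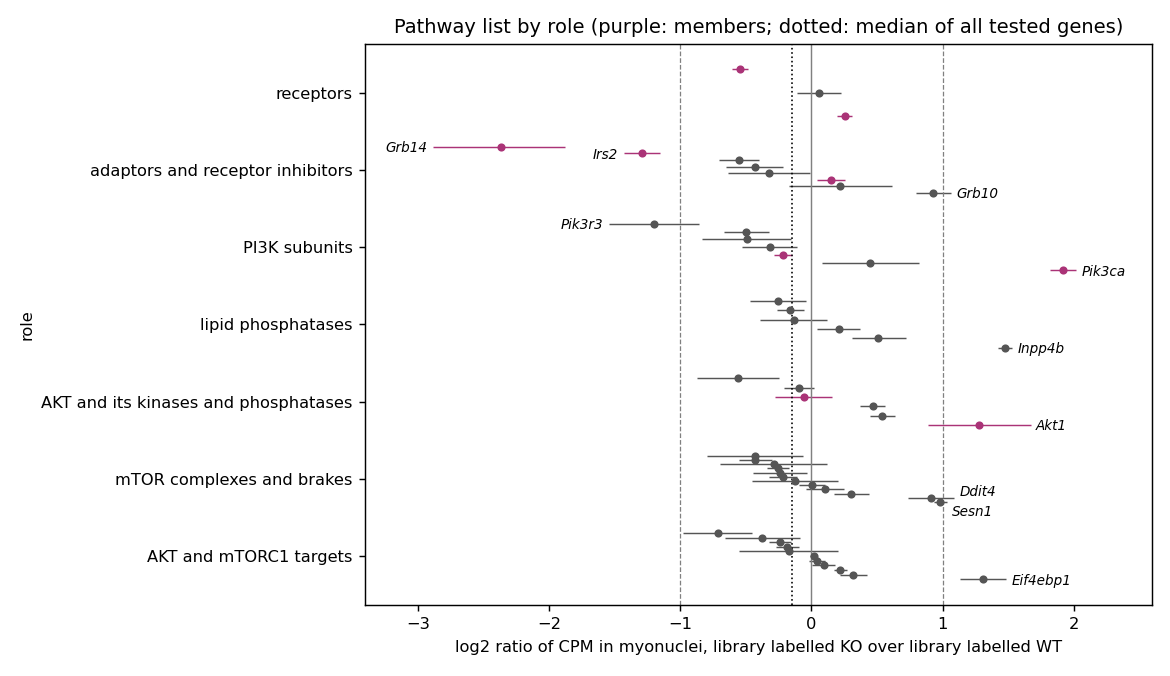
Log2 ratio of CPM in myonuclei, library labelled KO over library labelled WT (x axis), for the 53 pathway genes with at least 200 UMIs by role (y axis), with exact 95% counting intervals. Members are purple, dashed lines mark 2-fold and the dotted line marks the median of all tested genes (-0.15), and 4 genes lie past 2-fold on the higher side and 3 on the lower.

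The adaptors and receptor inhibitors had 0 genes past 2-fold higher and 2 lower of 8, both members. *Grb10*, an adaptor related to *Grb14* that also inhibits the receptors, was 77.2 and 147 CPM, a log2 ratio of 0.93 (0.80 to 1.06). In *Myh4* nuclei *Grb10* was 50.9 and 165 CPM, while in *Myh2* nuclei it was 133 and 134 CPM. *Grb10* and *Ddit4* were named after their values were seen, because TMM scaling moves them past 2-fold. *Ddit4*, a stress-induced inhibitor of mTORC1, was 46.0 and 86.5 CPM, a log2 ratio of 0.91 (0.74 to 1.08). In *Myh1* nuclei *Ddit4* was at 1.40 (1.09 to 1.71) and in *Myh4* nuclei at 0.40 (0.07 to 0.72).

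Among AKT genes and their regulators, 1 of 6 was past 2-fold higher, *Akt1*, and 0 lower. *Pdpk1*, whose product PDK1 activates AKT, was 157 and 228 CPM, a log2 ratio of 0.54 (0.44 to 0.64). Of the mTOR complexes and their brakes, 0 of 12 were past 2-fold over all myonuclei. *Sesn1*, a sestrin that restrains mTORC1, came closest, with 552 and 1091 CPM and a log2 ratio of 0.98 (0.93 to 1.03). By fiber group *Sesn1* was at 0.52 in *Myh4*, 1.14 in *Myh1* and 1.30 in *Myh2* nuclei. It was thus past 2-fold in *Myh1* and *Myh2* nuclei, beside 3.29% and 2.8% of tested genes. *Rptor*, the mTORC1 scaffold, was at -0.26 (-0.34 to -0.17) over all myonuclei.

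Of the AKT and mTORC1 targets, 1 of 11 was past 2-fold, *Eif4ebp1*. *Foxo1*, a transcription factor held out of the nucleus by AKT, was 661 and 771 CPM, a log2 ratio of 0.22 (0.17 to 0.27). *Tbc1d1*, a brake on glucose transporter traffic, was 2250 and 2275 CPM, at 0.02 (-0.01 to 0.04). Its sign differed between fiber groups, at 0.48 (0.42 to 0.54) in *Myh4* nuclei and -0.20 (-0.24 to -0.16) in *Myh1* nuclei. In *Myh2* nuclei it was 0.02 (-0.08 to 0.13). Receptors had 0 of 3 past 2-fold, and *Igf2r* was at 0.06 (-0.11 to 0.23). The ligands and binding proteins had 0 of 9 genes with enough UMIs in myonuclei, *Igf2* being at 34 UMIs and 3.84 CPM in the WT-labelled library and at 5.49 CPM in the KO-labelled library.

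Genes whose levels followed those of a member over 23 profiles (fiber groups and non-muscle classes of both libraries with at least 20000 UMIs) were found by Pearson's r of log2(CPM + 10) among 8650 genes with at least 200 UMIs. For *Igf1* these were *Cpq* (r = 0.854), *Pak1* (0.852) and *Adcy7* (0.849). For *Pik3ca* they were *Ccdc141* (0.770), *Lpp* (0.663) and *Cspg4* (0.651), and for *Grb14* they were *Esf1* (0.879), *Shprh* (0.852) and *Zfp383* (0.832). The profiles share libraries and differ in depth, and the values of *Grb14* rest on 273 UMIs in all, so the likeness is a description only.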

How the data were processed

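The deposited values are raw UMI counts of genes in barcodes, for which the authors used Cell Ranger 7.0.0. The submitters' processing notes also name Seurat 5.0.3 and mm10. Kit (3′ in the methods, multiome in the labels), strand and intron counting are unsettled, so reads of *Igf1*, *Insr*, *Irs1* and *Irs2* and of overlapping antisense genes, which are rows of their own, may not have been told apart. Genes on the same strand overlap *Pik3ca*, *Pik3r1* and *Akt1* and are not rows of the tables.

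Nuclei were kept with 200 to 5000 genes and up to 5% mitochondrial UMIs, and doublets were removed by Scrublet rank (scanpy 1.11.5) at 0.8% per 1000 barcodes. Seurat 5.3.0 (R 4.3.3) integrated the libraries by RPCA (2000 variable genes, 30 components) and clustered at resolution 0.5 without 866 genes, the pathway list and those differing 2-fold. Clusters were named from fixed markers by a rule set after the clusters were seen. Lymphatic nuclei were split from the MuSC-like cluster with the resolution 1.0 clusters, 42 and 29 nuclei stayed unnamed, and 1 small MuSC-like cluster was led by cell cycle genes. MTJ-like and NMJ-like nuclei are myonuclei.

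Intervals come from scipy 1.17.1 in Python 3.11.15, TMM factors from edgeR 4.0.16, and the ratios were tested on simulated data. Nuclei are not replicates, so no test over nuclei was run, unlike the Wilcoxon test of the study. The members and lists were chosen with earlier results of these data known. Named were all members, pathway genes past 2-fold, the 1 or 2 genes with most UMIs per role, and the 3 genes most like *Igf1*, *Pik3ca* and *Grb14*, some of which are not reported here. GENCODE M21 (GRCm38) gave gene positions and matched 32158 identifiers. Alternatives covered scaling, filters, doublets, thinning, clustering and fiber group weights.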

Additional observations from a re-analysis of the deposited data

Results flagged for a closer look

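Some members had log2 ratios (KO-labelled over WT-labelled library) of opposite sign in different nuclei, with both intervals off 0. None of these differences was tested, since there is 1 library per genotype.

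*Irs1* was at -0.29 in *Myh4* nuclei and 0.54 in *Myh1* nuclei. Without nuclei holding stromal marker UMIs these values were -0.14 (-0.40 to 0.13) and 0.51 (0.28 to 0.74), so the *Myh4* interval then included 0. With all nuclei kept, *Irs1* was at 0.15 over all myonuclei, against -0.52 in MuSC-like and -1.07 in tenocyte-like nuclei. *Pik3r1* was at -0.59 in *Myh4* nuclei and -0.15 in *Myh1* nuclei, against 0.35 in *Myh2* nuclei. The *Myh1* value stood at the median of all genes there, also -0.15. *Igf1r* was at -0.54 in myonuclei, against 0.45 in MuSC-like nuclei and 0.66 in macrophage-like nuclei. *Insr* was at 0.26 in myonuclei and -0.63 in endothelial-like nuclei. The tenocyte-like, macrophage-like, MuSC-like and endothelial-like values rest on 46 to 355 UMIs in each library, other than *Irs1* in tenocyte-like nuclei (65 and 28) and *Insr* in endothelial-like nuclei (93 and 41).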

How the results depend on the processing

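No paired analysis was possible because there is 1 library per genotype, and no replicate could be left out. Of 339 values of single members under alternatives, 303 stayed within the 95% counting interval of the reported value, 34 moved outside it and 2 whose interval lay off 0 changed sign: *Irs1* in myonuclei was -0.0276 with nuclei thinned to 1000 UMIs and -0.00796 with fiber groups weighted equally, where *Myh1* and *Myh4* nuclei differ in sign. A further 10 values whose reported interval included 0 changed sign, those of *Akt2* in myonuclei (0.07 under TMM scaling) and in *Myh1* nuclei (0.22 after thinning), and of *Igf1* (-0.46 after thinning) and *Irs1* (-0.43 after thinning) in *Myh2* nuclei. In myonuclei, the members past 2-fold were 1 higher and 1 lower after thinning, where 7 members had 200 UMIs, and 1 higher over all nuclei. Without nuclei holding stromal marker UMIs, which was added once the data had been seen, they were 1 higher and 1 lower, again of 7. The pathway list gave 7 higher under TMM and under median-of-ratios scaling, 1 lower after thinning, 1 lower without stromal marker nuclei and 5 lower with a minimum of 100 UMIs, which adds *Igf1* and *Enpp1*. In *Myh2* nuclei, 0 members were lower in fiber groups limited to nuclei with at least 3 myosin UMIs and 80% of 1 gene, and 0 after thinning, since *Irs2* then has under 200 UMIs. With those purer groups, 1 member (*Irs2*) was past 2-fold higher in *Myh2* than in *Myh4* nuclei of the WT-labelled library. For FAP-like nuclei over myonuclei, TMM and median-of-ratios scaling each gave 1 higher and 2 lower in the WT-labelled library and 1 lower in the KO-labelled library, and a minimum of 500 genes gave 0 lower in the WT-labelled library. The causes other than fewer UMIs were not tested. Depth limits *Igf1*, *Grb14* and *Akt1* most: in *Myh4* nuclei of the KO-labelled library, 3 UMIs are 1.73 CPM.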
